A study of Homo sapiens with 6 samples.

Results

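The genes described here are the numbered zinc finger genes of human chromosome 19, those with a symbol made of ZNF, a number and at most 1 further letter. The deposited table lists 61806 genes, and 263 of them met this rule. By GENCODE release 29, 247 of the 263 are protein coding and 16 are pseudogenes, whose symbols end in P. They were measured by sequencing of poly(A) RNA in A549, a cell line from a human lung adenocarcinoma whose genotype is labelled WT. The 3 control libraries came from cells given the solvent DMSO. The 3 treated libraries came from cells given Japoflavone B (their titles read LE-532, which no label explains). Both treatments lasted 24 h and began 24 h after seeding, and the dose of Japoflavone B is labelled 40 without a unit. Nothing says whether the libraries of a group came from separate cultures, so p-values measure only the spread between these libraries, which may be technical.

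Most ZNF genes encode transcription factors with a row of C2H2 zinc fingers, each of which folds around a zinc ion and reads a few bases of DNA. Many also carry a KRAB box, which binds the corepressor TRIM28 (KAP1); TRIM28 in turn brings the histone methyltransferase SETDB1, heterochromatin proteins and the NuRD complex to the bound DNA. Chromosome 19 holds the largest groups of KRAB zinc finger genes in the human genome, laid out in clusters that grew by tandem duplication, and many of their known targets are transposable elements. The aim stated for the series was to follow mRNA changes behind cell death after Japoflavone B; the comparison here describes what this gene family did in that experiment.

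The libraries held 15298531 to 21744407 gene counts. Fold changes are the treated over the control level, from edgeR's quasi-likelihood test with Benjamini-Hochberg adjustment over the 16082 genes with enough counts, and a gene was called higher or lower at an adjusted p under 0.05. Levels are in FPKM (counts scaled for the exonic length of the gene and the total of the library), which can be compared between genes. The 5 epithelial markers (KRT8, KRT18, KRT19, EPCAM and CDH1) summed to 686.76 to 768.87 FPKM after DMSO and to 212.85 to 226.16 after Japoflavone B, and 4 of them were lower. The alveolar markers NKX2-1, SFTPB and SFTPC summed to at most 0.08 FPKM in any library, next to none of these lung identity genes. Leukocyte markers (4 genes) and endothelial markers (3) summed to at most 0.12 and 0.07 FPKM. The fibroblast markers summed to 4.55 to 5.21 and 0.57 to 0.71 FPKM, most of it COL1A1, with DCN and LUM at or near 0. The part of the epithelial and COL1A1 changes in the results below was not tested, and in bulk RNA fewer cells of a type cannot be told apart from less RNA per cell.

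More of the chromosome 19 ZNF genes rose than fell. Of the 263, 176 had enough counts for the test; 95 of them (54.0%) were higher after Japoflavone B, 26 (14.8%) were lower and 55 did not pass. Over all 16082 genes tested, 34.7% were higher and 35.4% lower. The median log2 fold change was 0.44 over the 176 and 0.00 over all genes tested, and single members ran from -2.41 to 3.08. At least a 2-fold rise was found for 36 of the 176 and at least a 2-fold fall for 6 of the 176. Over all 16082 genes tested, 1555 (9.67%) rose and 2419 (15.0%) fell by at least 2-fold. Members that passed the count filter had to be expressed in at least 1 group, so these counts speak for the 176 and not for all 263.

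Summed over all members, the counts made up a larger share of the treated libraries. They took 0.206%, 0.199% and 0.194% of all counts in the DMSO libraries and 0.258%, 0.256% and 0.255% in the Japoflavone B libraries, so every treated library lay above every control library. The mean share was 0.200% ± 0.00608 in the controls and 0.256% ± 0.00172 in the treated libraries (SD, n = 3 each). ZNF genes on other chromosomes took 0.525% ± 0.0192 and 0.564% ± 0.00288 (SD, n = 3 each). The number of members with at least 1 count was 194 to 197 in the DMSO libraries and 202 to 207 in the Japoflavone B libraries.

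**Figure D1:**
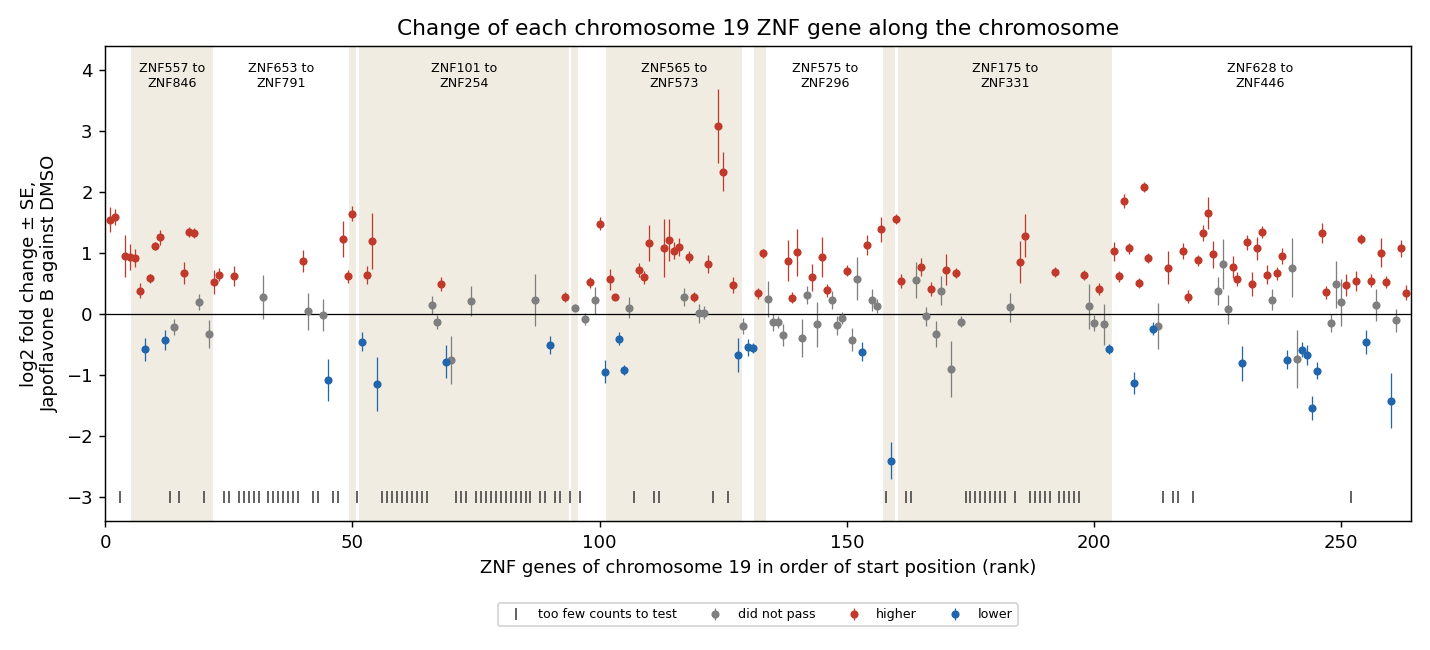
Log2 fold change of each chromosome 19 ZNF gene (y axis, Japoflavone B against DMSO, bars 1 SE from edgeR) in order of start position (x axis, rank from 1 to 263), with shading that alternates between the 17 clusters and names over those of 16 or more genes. Red marks the 95 higher genes, blue the 26 lower, grey the 55 that did not pass, and ticks at the bottom the 87 with too few counts, which crowd in the ZNF653, ZNF101 and ZNF175 clusters.

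The other 87 members were at or near the floor of detection. Of these, 41 had no count in any library, 30 had 1 to 9 counts in all 6 libraries together and 16 had 10 or more, with a highest total of 62. Together they had 217 counts over the 3 DMSO libraries and 326 over the 3 Japoflavone B libraries. A count of 0 allows up to 3 counts, which for a member of median length is 0.0264 to 0.0376 FPKM depending on the library; the limit covers counting error only. ZNF93, ZNF541 and ZNF135 were among the members at 0 in every library. ZNF93 is known to bind and repress LINE-1 elements, and ZNF541 is a germ cell factor.

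The start regions of these genes were searched for sequence features that the choice of genes did not use. In RefSeq's promoter windows for GRCh38.p14 (250 bases before to 50 after the start), 216 of the 263 members had an entry. The letters CCGGAAG, the core of the sites bound by ETS factors, stood on either strand in 45.4% of the members' windows. They stood in 28.7% of the windows of ZNF genes on other chromosomes, in 16.1% of those of all genes tested and in 10.3% of all 35116 windows. The letters ACTACAA, part of the longer element bound by ZNF143, stood in 5.09% of members' windows, in 6.29% of those of ZNF genes on other chromosomes, in 3.26% of those of all genes tested and in 2.77% of all. TATAAA stood in 1.85%, 5.59%, 6.44% and 11.5% of the same windows. Both strands were searched, and none of the 3 motifs holds another.

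The 5 windows printed here show how these letters sit near the start, each from 250 bases before to 25 after it, 5′ to 3′ along the gene, with CCGGAAG and ACTACAA (or their reverse complements CTTCCGG and TTGTAGT) in capitals. ZNF333 and ZNF805 were higher and have CCGGAAG at -4 and -37 from the start; ZNF805 also has ACTACAA at -132. ZNF317, higher as well, has ACTACAA at -80 and no CCGGAAG. ZNF776 was lower and has CCGGAAG at -18, and ZNF91, which was not expressed enough to test, has it at -24. The windows are chr19:14689798-14690072 for ZNF333, chr19:57240382-57240656 for ZNF805, chr19:9140147-9140421 for ZNF317 and chr19:57746565-57746839 for ZNF776, all on the plus strand, and chr19:23395447-23395721 on the minus strand for ZNF91.
ZNF333: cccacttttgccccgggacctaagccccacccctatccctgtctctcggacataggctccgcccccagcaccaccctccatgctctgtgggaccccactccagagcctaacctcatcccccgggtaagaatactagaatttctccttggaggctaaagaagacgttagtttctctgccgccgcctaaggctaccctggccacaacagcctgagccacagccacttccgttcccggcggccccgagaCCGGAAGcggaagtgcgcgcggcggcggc
ZNF805: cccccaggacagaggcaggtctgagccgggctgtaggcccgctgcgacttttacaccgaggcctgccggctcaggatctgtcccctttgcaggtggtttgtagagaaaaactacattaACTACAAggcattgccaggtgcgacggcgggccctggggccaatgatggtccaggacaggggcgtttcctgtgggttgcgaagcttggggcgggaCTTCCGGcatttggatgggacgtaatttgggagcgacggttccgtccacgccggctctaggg
ZNF317: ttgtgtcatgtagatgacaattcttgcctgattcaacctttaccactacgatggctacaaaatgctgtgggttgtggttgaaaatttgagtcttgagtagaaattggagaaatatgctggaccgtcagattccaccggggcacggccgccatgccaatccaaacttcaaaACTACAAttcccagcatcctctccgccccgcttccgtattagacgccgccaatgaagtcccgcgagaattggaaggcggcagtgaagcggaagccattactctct
ZNF776: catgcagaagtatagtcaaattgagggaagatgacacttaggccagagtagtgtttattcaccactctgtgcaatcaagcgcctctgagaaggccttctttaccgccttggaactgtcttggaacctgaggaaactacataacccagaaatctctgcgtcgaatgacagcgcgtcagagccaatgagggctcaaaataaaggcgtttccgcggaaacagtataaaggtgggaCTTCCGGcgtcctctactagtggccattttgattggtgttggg
ZNF91: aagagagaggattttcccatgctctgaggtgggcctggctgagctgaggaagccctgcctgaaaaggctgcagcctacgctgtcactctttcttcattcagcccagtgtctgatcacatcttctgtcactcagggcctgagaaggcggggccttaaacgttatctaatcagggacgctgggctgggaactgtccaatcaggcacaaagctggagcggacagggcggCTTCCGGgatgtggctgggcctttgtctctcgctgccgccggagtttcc

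The CCGGAAG letters were about as common whatever the member did. They stood in 44.8% of the windows of higher members, 40.9% of those of lower members and 45.8% of those of members with too few counts. The ACTACAA letters stood in 8 windows of higher members (9.20%), in 1 of a lower member (4.55%) and in 1 of an untested member (1.69%). TATAAA was found in 4 members' windows. The 3 of these that were tested, ZNF708, ZNF675 and ZNF776, were all lower. ZNF708 and ZNF675 lie in the same cluster, from ZNF101 to ZNF254. CG dinucleotides differed more with the call. Their median number per window was 23 in higher members, 18 in lower members and 16 in members not tested, against 25 over the windows of all genes tested. Of the members with the fewest CG, 41.3% of those tested were higher and 21.7% lower; of those with the most, 67.9% were higher and 5.36% lower. The shares of calls by these letters or by number of CG were not worked out for all genes. A trend common to all genes thus cannot be told from one of the members. Level differed too: the median after DMSO was 1.02 FPKM in tested members with the fewest CG and 1.43 in those with the most. No test was made of these shares, since members that arose by duplication share sequence.

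The members that rose most among those with at least 1 FPKM were found in several places on the chromosome. They, and the most lowered members below, were picked only where the groups did not overlap in FPKM. Their lack of overlap is thus no result. ZNF581 (ENSG00000171425, chr19:55635459-55645623 in GRCh38, plus strand) was at 9.81, 11.62 and 11.23 FPKM after DMSO and at 44.86, 42.49 and 41.63 after Japoflavone B. The treated libraries lay far above the controls, 4.25-fold (log2 fold change 2.09 ± 0.0773 SE, edgeR adjusted p = 3.43e-19). ZNF524 (ENSG00000171443, chr19:55600022-55603138, plus strand), a protein known to bind telomere repeats, was at 5.46, 7.37 and 6.31 FPKM and then at 20.03, 24.35 and 20.44. Its rise was 3.62-fold (1.86 ± 0.113 SE, edgeR adjusted p = 2.36e-14). Both encode proteins with 4 C2H2 finger patterns and no KRAB pattern, and 32.3 kb lie between the genes.

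Counting can be affected where genes overlap. For genes on opposite strands this depends on whether strand was used, which the labels do not say. For genes on the same strand it holds either way. ZNF581 overlaps ZNF580 and CCDC106 on its own strand. ZNF580 rose as well, from 8.26, 9.08 and 9.16 FPKM to 12.30, 12.37 and 10.39 (1.42-fold, edgeR adjusted p = 1.33e-05), while CCDC106 fell from 5.02 ± 0.71 to 2.02 ± 0.172 FPKM (SD, n = 3 each; edgeR adjusted p = 1.45e-08). ZNF524 overlaps FIZ1 on the opposite strand, which fell from 3.04 ± 0.175 to 1.85 ± 0.178 FPKM (SD, n = 3 each; edgeR adjusted p = 8.98e-06). ZNF580 thus moved in the same direction as ZNF581, and CCDC106 and FIZ1 moved opposite to the ZNF gene they overlap. Whether the counting of shared reads had a part in these changes was not tested.

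ZNF333 (ENSG00000160961, chr19:14689801-14733746, plus strand), a KRAB gene that stands alone between clusters, was at 0.65, 0.67 and 0.54 FPKM after DMSO. After Japoflavone B it was at 1.63, 1.96 and 1.87 (3.13-fold, log2 1.65 ± 0.119 SE, edgeR adjusted p = 1.07e-12). ZNF473 (ENSG00000142528, chr19:50025714-50053414, plus strand) stands alone too. It encodes ZFP100, a component of the machinery that processes the 3′ ends of histone mRNAs. Its level was 2.89, 3.07 and 2.59 FPKM after DMSO and 7.30, 8.43 and 7.91 after Japoflavone B (2.95-fold, log2 1.56 ± 0.0821 SE, edgeR adjusted p = 8.77e-16). VRK3, which overlaps ZNF473 on the opposite strand, was higher by 1.19-fold. ZNF30 (ENSG00000168661) rose from 3.5, 3.25 and 3.05 FPKM to 8.66, 7.94 and 8.89 (2.79-fold, log2 1.48 ± 0.106 SE, edgeR adjusted p = 8.61e-13).

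The other strongly raised members lay on both arms. ZNF555 and ZNF554, neighbours at the tip of the short arm, went from 0.58, 0.58 and 0.71 to 1.70, 1.89 and 1.61 FPKM and from 0.49, 0.35 and 0.32 to 1.08, 1.11 and 1.03 FPKM. Their rises were 3.01-fold and 2.93-fold (edgeR adjusted p = 3.02e-11 and 1.2e-07). ZNF121 and ZNF561 are neighbours in the ZNF557 cluster: ZNF121 was at 2.43 to 2.84 and then 5.98 to 6.18 FPKM, and ZNF561 at 3.16 to 3.59 and then 7.11 to 8.24. They rose by 2.54-fold and 2.52-fold (edgeR adjusted p = 2.55e-14 and 3.33e-14). ZNF550, ZNF805 and ZNF296 rose by 2.55-fold, 2.52-fold and 2.62-fold, with treated levels of 3.58 to 3.70, 1.54 to 2.13 and 3.29 to 4.23 FPKM. The rule picked all of these genes for groups without overlap. ZNF549, which overlaps ZNF550 on the opposite strand, was higher by 2.11-fold, and whether shared reads had a part was not tested.

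ZNF540 and ZNF571 had the largest fitted rises of all members, at levels too low for the rule on named genes; they are given here after their values were seen. ZNF571 had 33, 12 and 10 counts in the DMSO libraries and 59, 76 and 104 in the Japoflavone B libraries (5.04-fold, edgeR adjusted p = 2.96e-07). ZNF540 had 5, 0 and 2 counts and then 26, 10 and 19 (8.48-fold, edgeR adjusted p = 5.55e-05). The gene bodies overlap on opposite strands, at chr19:37554782-37594792 and chr19:37551406-37614179. Without strand, reads from stretches that exons of both genes cover cannot be told apart, and how far the exons overlap was not examined. ZNF540 also overlaps ZFP30 on the opposite strand, which was lower.

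Falls were fewer, and ZNF114 had the largest. ZNF114 (ENSG00000178150, chr19:48270081-48287608, plus strand) was at 1.27, 1.62 and 1.26 FPKM after DMSO and at 0.15, 0.38 and 0.22 after Japoflavone B. This 5.31-fold fall (log2 -2.41 ± 0.300 SE, edgeR adjusted p = 5.16e-08) rests on 80, 106 and 58 counts against 9, 18 and 12. ZNF552 (ENSG00000178935, chr19:57803841-57814913, minus strand) went from 2.35, 2.28 and 1.95 FPKM to 0.61, 0.62 and 0.87 (2.92-fold lower, log2 -1.55 ± 0.201 SE, edgeR adjusted p = 1.07e-07). ZNF784 (ENSG00000179922, chr19:55620741-55624566, minus strand) went from 3.06, 3.59 and 3.33 FPKM to 1.42, 1.41 and 1.39 (2.20-fold lower, log2 -1.14 ± 0.178 SE, edgeR adjusted p = 2.48e-06). The rule picked all of them for groups that were apart. ZNF784 lies on the opposite strand between the risers ZNF524 and ZNF581, 17.6 kb from the one and 10.9 kb from the other. ZNF865, between ZNF524 and ZNF784, rose from 4.59, 5.63 and 5.73 to 10.67, 10.84 and 9.73 FPKM (2.11-fold, edgeR adjusted p = 2.1e-11) and is named here for its place, after its value was seen.

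ZNF260 (ENSG00000254004, chr19:36510687-36528271, minus strand) was the most abundant of the strongly lowered members. It encodes a protein of fingers alone, whose mouse counterpart is known from heart muscle. Its level was 8.14, 7.09 and 6.98 FPKM after DMSO and 3.76, 3.22 and 3.93 after Japoflavone B (1.89-fold lower, log2 -0.92 ± 0.0880 SE, edgeR adjusted p = 3.29e-10). ZNF586, ZNF552 and ZNF587B form a run of overlapping genes near the end of the long arm, and all of them fell, ZNF586 by 1.59-fold and ZNF587B by 1.91-fold (edgeR adjusted p = 0.000559 and 6.89e-07). The other members that the rule named as lowered were ZNF792 (1.93-fold), ZNF551 (1.68-fold), ZNF112 (1.54-fold), ZNF776 (1.51-fold), ZNF414 (1.5-fold) and ZNF331 (1.49-fold). ZNF331, an imprinted gene, was at 4.04, 4.01 and 3.48 and then at 2.53, 2.37 and 2.32 FPKM. The call of ZNF414 did not hold without the third DMSO library (log2 -0.38, edgeR adjusted p = 0.0889; 0.00034 to 0.0284 over the other alternatives).

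**Figure D2:**
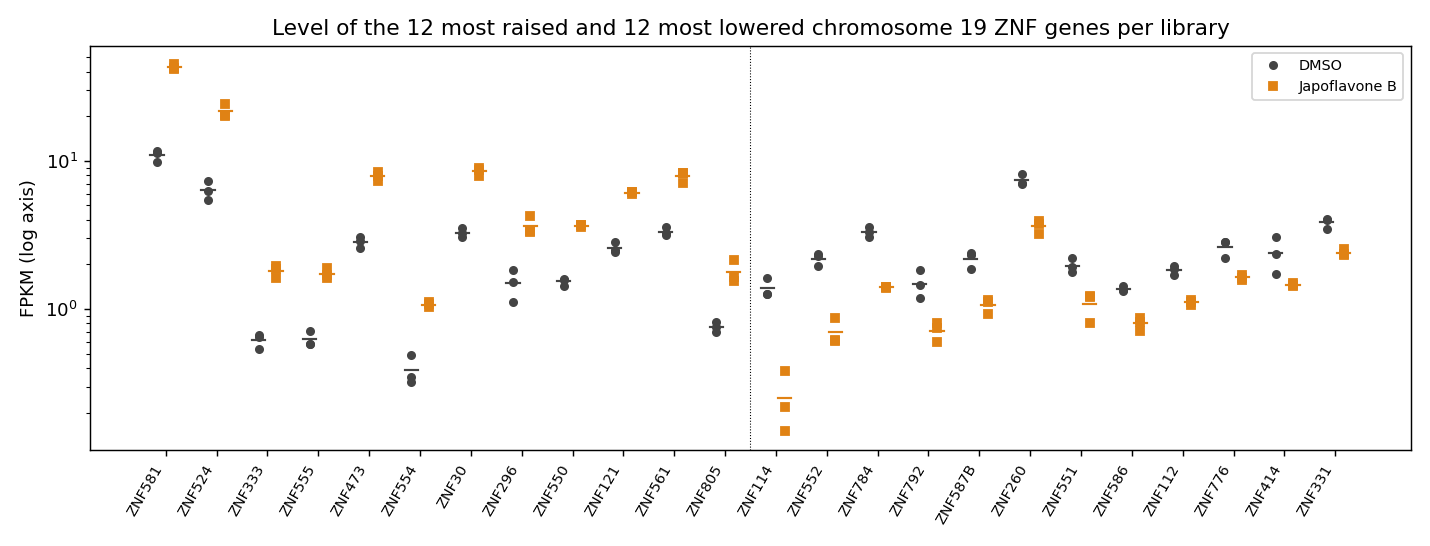
FPKM in each library (y axis, log scale) of the 12 most raised (left of the dotted line) and the 12 most lowered members (right), among called members with at least 1 FPKM and no overlap of groups. Circles are the 3 DMSO libraries, squares the 3 Japoflavone B libraries and short lines their means; ZNF581 reached 41.63 to 44.86 FPKM after treatment and ZNF114 fell to 0.15 to 0.38.

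Of the 5 most abundant members, 3 rose by over 2-fold, 1 rose slightly and 1 did not pass. ZNF146, a protein of fingers without a KRAB box, was by far the highest, at 63.70, 57.59 and 61.12 FPKM after DMSO and 68.23, 69.99 and 68.17 after Japoflavone B (1.21-fold, edgeR adjusted p = 2.64e-05). ZNF428 was at 19.26, 23.39 and 22.18 and then 18.16, 20.95 and 16.07 FPKM, with overlapping groups, and did not pass (log2 -0.13 ± 0.0936 SE, edgeR adjusted p = 0.207). ZNF317, a KRAB gene, went from 8.90, 8.70 and 8.68 to 17.41, 18.43 and 17.21 FPKM (2.17-fold, edgeR adjusted p = 3.33e-15). ZNF581 and ZNF524 were the others. ZNF507, on the long arm at 32.3 to 32.4 Mb, was at 8.22 to 9.45 and 8.34 to 9.16 FPKM and did not pass (log2 0.10 ± 0.0602 SE, edgeR adjusted p = 0.126).

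Higher calls were more frequent among members of 1 FPKM or more than below, and over all genes tested the share of higher calls rose with level as well. Of the members with under 0.5 FPKM on average over the 6 libraries, 37 were tested, and 14 were higher and 4 lower. At 0.5 to 1 FPKM there were 11 higher and 5 lower of 32, and at 1 to 2 FPKM 23 and 10 of 44. At 2 to 5 FPKM 31 of 42 members were higher (73.8%) and 6 lower, and at 5 FPKM or more 16 of 21 were higher (76.2%) and 1 lower, which was ZNF260. Over all genes the shares higher in the same 5 classes were 20.9%, 22.2%, 25.1%, 34.3% and 45.4%, and 35.3% of those of at least 5 FPKM were lower. The share of higher calls thus lay above that of all genes in each of the 5 classes, and the share of lower calls below it.

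**Figure D3:**
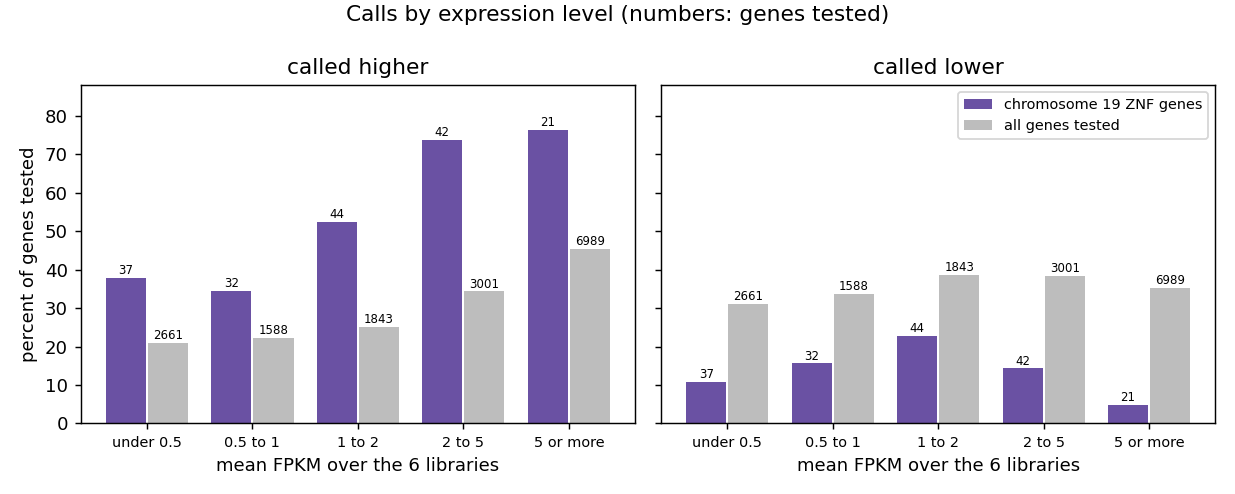
Percent of tested genes called higher (left) and lower (right) by mean FPKM over the 6 libraries (x axis), for chromosome 19 ZNF genes (purple) and all genes tested (grey), with the number tested over each bar. In every class the purple bar is the taller one on the left and the shorter one on the right, with 76.2% against 45.4% higher at 5 FPKM or more.

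Along the chromosome the members fell into 17 groups when a gap of over 1 Mb between starts was taken as a border; 7 of the groups held 16 or more genes. The largest, ZNF628 to ZNF446 near the end of the long arm (55.5 to 58.5 Mb), had 60 members, of which 55 were tested, 33 were higher and 10 lower, with a median log2 fold change of 0.54. Among the other named genes interleaved with it, 23 were tested, 9 were higher and 9 lower, and their median was 0.00. The ZNF565 to ZNF573 cluster (36.2 to 37.8 Mb) had 15 higher and 3 lower of 22 tested (median 0.58). That from ZNF557 to ZNF846 (7.1 to 9.8 Mb) had 8 and 2 of 13 (median 0.59). Of 35 interleaved genes tested in the latter, 15 were higher and 6 lower (median 0.17). ZNF554 to ZNF77, at the tip of the short arm, is small, but all 4 tested members were higher (median 1.25); ZNF77 rose from 1.18, 0.96 and 0.94 to 1.70, 2.06 and 1.78 FPKM.

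Other clusters were mixed, mostly silent or lowered. From ZNF575 to ZNF296 (43.5 to 45.1 Mb) all 24 members were expressed enough to test, yet 14 did not pass, 9 were higher and 1 lower (median 0.24). Its interleaved genes did not lag behind: 12 were higher and 5 lower of 22 tested, with a median of 0.32. Clusters whose interleaved genes are not given had at most 8 of them tested. The ZNF101 to ZNF254 cluster (19.7 to 24.1 Mb), which lies next to the centromere and holds many genes of recent primate origin, had 19 members at 0 counts and 13 tested of 42. Of these, 4 were higher and 4 lower (median 0.15). In the ZNF653 to ZNF791 cluster 18 of 28 members were not tested, and 6 were higher and 1 lower. In the ZNF175 to ZNF331 cluster 22 of 43 were not tested, and 10 were higher and 1 lower. ZNF546 to ZNF780A (40.0 to 40.1 Mb) was the one cluster of more than 1 tested member with no rise: ZNF780A fell from 5.20, 5.34 and 4.94 to 3.19, 3.43 and 3.18 FPKM (1.47-fold, edgeR adjusted p = 2.73e-07) and ZNF780B by 1.46-fold. Nothing was tested between clusters.

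The most abundant tested members of the clusters not yet described give their levels. ZNF627 and ZNF791, the leaders of the ZNF653 cluster, rose by 1.56-fold and 1.53-fold, to 4.57 to 5.14 and 3.78 to 4.16 FPKM (edgeR adjusted p = 3.86e-06 and 6.42e-06). In the ZNF101 cluster ZNF14 rose by 1.56-fold and ZNF254 by 1.21-fold (edgeR adjusted p = 0.000316 and 0.00636), and the groups of both were apart. ZNF766, a KRAB gene of the ZNF175 cluster, rose from 4.2, 3.72 and 3.92 to 6.01, 5.80 and 5.76 FPKM (1.59-fold, edgeR adjusted p = 7.69e-09), while its neighbour ZNF480 was at 5.42 to 6.36 and 4.33 to 5.39 FPKM and did not pass. ZNF526 and ZNF574 form a pair without KRAB patterns at 42.1 to 42.2 Mb: ZNF526 rose by 2.00-fold, from 5.78 to 6.20 up to 10.76 to 11.27 FPKM, and ZNF574 by 1.26-fold with overlapping FPKM values. ZNF526 overlaps GSK3A, which did not pass (edgeR adjusted p = 0.189). ZNF302 (5.53 to 7.53 and 5.79 to 6.48 FPKM) did not pass, and ZNF358 and ZNF45 rose by 1.30-fold and 1.2-fold. The FPKM values of ZNF358 overlap between groups (4.98 to 6.75 and 6.30 to 7.82). Its call was lost with limma on FPKM, as were those of ZNF45, ZNF254 and ZNF574, and those of ZNF45 and ZNF254 also with library totals alone. The call of ZNF45 was lost as well without the second DMSO library (log2 0.21, edgeR adjusted p = 0.0684; 0.00485 to 0.107 over the other alternatives).

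**Figure D4:**
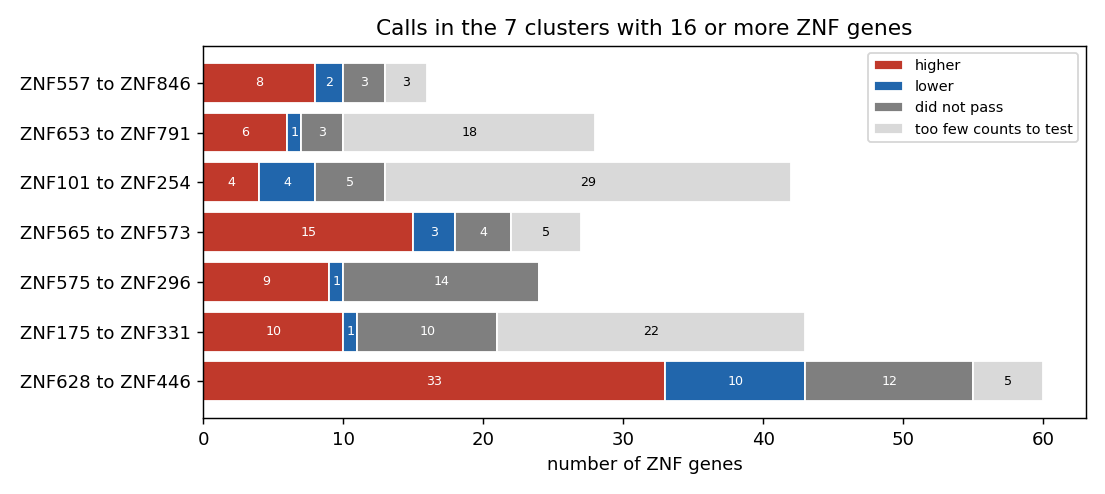
Number of ZNF genes (x axis) in each of the 7 clusters with 16 or more members (y axis, in chromosomal order), split into higher (red), lower (blue), did not pass (dark grey) and too few counts to test (light grey). The lowest bar, ZNF628 to ZNF446, holds 33 higher and 10 lower genes; ZNF101 to ZNF254 holds 4 of each and 29 that were not tested.

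Neighbours with calls in the same direction outnumbered those with opposite calls, in a set where most calls were higher. Over 161 pairs of tested members next to each other within a cluster, the log2 fold changes had a Pearson r of 0.22 and a Spearman rho of 0.17 across pairs, given as a description because the pairs share genes and libraries. Both were higher in 52 pairs and both lower in 5, and 22 pairs had opposite calls. Of all tested members 54.0% were higher and 14.8% lower, so many pairs of higher members arise whatever the order. No comparison with reordered pairs was made. There were 4 pairs of members that start within 1000 bases of each other and point away from each other. ZNF829 and ZNF568, whose starts are 38 bases apart, both rose (log2 1.09 and 1.22) from at most 0.10 FPKM; the FPKM values of ZNF829 overlap between groups. ZNF568 is known through its mouse counterpart, which represses a placental Igf2 transcript; it had 16, 15 and 15 counts after DMSO and 40, 21 and 34 after Japoflavone B. In the pair ZNF585B and ZNF383, ZNF383 rose (log2 0.94) and ZNF585B, at 0.28, did not pass; the other pairs had at most 1 member tested.

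Members with a known role moved both ways. ZNF274 (ENSG00000171606, chr19:58183029-58213562, plus strand) is a KRAB protein known to bind the 3′ ends of other zinc finger genes, many on this chromosome, and to bring SETDB1 there. It was at 2.52, 2.43 and 2.42 FPKM after DMSO and at 5.05, 5.61 and 5.42 after Japoflavone B, well apart (2.34-fold, log2 1.23 ± 0.0792 SE, edgeR adjusted p = 8.86e-14). ZNF420 (Apak), known to restrain p53, rose from 1.83, 1.67 and 1.43 to 2.77, 3.59 and 3.17 FPKM (2.05-fold, edgeR adjusted p = 1.33e-07). ZNF585A, which overlaps ZNF420 on the opposite strand, was higher by 2.14-fold, and whether shared reads had a part was not tested. ZNF350 (ZBRK1), a BRCA1-binding repressor of GADD45A, rose from 1.10, 1.18 and 1.04 to 1.73, 1.88 and 1.68 FPKM (1.70-fold, edgeR adjusted p = 6.46e-05). In these genes, too, the groups did not overlap.

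ZNF175 (OTK18), known as a repressor of HIV-1 transcription, rose by 1.45-fold and ZNF224, a repressor of the aldolase A gene, by 1.31-fold (edgeR adjusted p = 0.000174 and 0.0017). ZNF675 (TIZ), an inhibitor of TRAF6 signalling, fell from 1.34, 1.53 and 1.34 to 1.04, 0.80 and 0.91 FPKM (1.42-fold, edgeR adjusted p = 0.00258). ZNF304, ZNF671 and ZNF154 were tested and did not pass, with overlapping groups and levels of at most 0.74 FPKM. ZNF671, ZNF154, ZNF582 and ZNF135 are known as genes whose promoters are often methylated in tumours, and ZNF582 (0.10 to 0.27 FPKM) and ZNF135 had too few counts to test. ZNF91, the repressor of SVA elements, had 3, 1 and 7 counts after DMSO and 6, 1 and 4 after Japoflavone B. ZNF536, a factor of the nervous system, had 0 counts in all DMSO libraries and 14, 3 and 5 in the Japoflavone B libraries, too few for the test. ZNF382, ZNF808 and ZNF667 had at most 9 counts in any library.

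The proteins fall into 2 kinds. In the longest coding sequence of each gene in GENCODE release 29, 210 of the 247 coding members had a KRAB pattern (the core L, Y, any 2 residues, V, M, or the start of the A box) and 37 did not. The KRAB genes had a median of 13 C2H2 finger patterns and a median level of 0.545 FPKM; 8 of the 210 reached 5 FPKM. The others had a median of 9 finger patterns and a median level of 2.37 FPKM, and 13 of the 37 reached 5 FPKM. Calls were nonetheless alike in direction: 76 of 145 tested KRAB genes were higher and 22 lower (median log2 fold change 0.48), and 18 of 29 tested genes without the pattern were higher and 4 lower (median 0.38). With the core pattern alone, 69 of 132 were higher and 17 lower. By number of fingers, 18 of 39 KRAB genes with 6 to 10 patterns were higher, 39 of 64 with 11 to 15 and 19 of 40 with 16 or more. A pattern match is not a domain call, and the 2 kinds were not tested against each other.

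ZNF genes on other chromosomes also rose more often than they fell. Of 294, 235 were tested, and 106 (45.1%) were higher and 57 (24.3%) lower, with a median log2 fold change of 0.21. Of the other named genes on chromosome 19, 823 were tested, and 333 (40.5%) were higher and 255 (31.0%) lower, with a median of 0.10. The values of the chromosome 19 ZNF genes (54.0%, 14.8% and 0.44) lie beyond both. The difference between these lists was not tested, since genes are not replicates of the treatment and members of a family can share reads with close copies.

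On the corepressor side of the pathway more genes fell than rose. Of 33 genes that encode TRIM28, its partners and related silencing factors, 7 were higher (21.2%), 22 lower (66.7%) and 4 did not pass, against 34.7% higher and 35.4% lower over all genes tested. The median log2 fold change was -0.39; the list was written with earlier results of these data known. TRIM28 itself was at 108.64, 124.98 and 130.11 FPKM after DMSO and 140.35, 143.17 and 131.97 after Japoflavone B, a 1.23-fold rise (edgeR adjusted p = 5.67e-05). SETDB1 was at 6.22, 6.09 and 6.09 and then 6.68, 5.79 and 7.0 FPKM, with overlapping groups and a 1.14-fold rise in the fit (edgeR adjusted p = 0.0248). The SETDB1 partner gene ATF7IP2 fell from 1.59 ± 0.0351 to 0.590 ± 0.139 FPKM (SD, n = 3 each; edgeR adjusted p = 4.36e-08). MORC2, an ATPase of the HUSH pathway, was higher by 1.67-fold. TASOR, MPHOSPH8 and PPHLN1, of the same pathway, were lower by 1.31-fold, 1.33-fold and 1.37-fold. These genes of the HUSH pathway are named here after their values were seen.

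The deepest falls on this list were in DNA methylation and remodelling genes, though not all such genes fell. UHRF1, which brings the maintenance methyltransferase DNMT1 to newly copied DNA, fell from 13.60, 13.91 and 12.95 to 1.77, 1.63 and 1.83 FPKM (7.18-fold, edgeR adjusted p = 1.76e-21). DNMT3B, a de novo methyltransferase, fell from 2.63, 2.53 and 2.13 to 0.54, 0.65 and 0.66 FPKM (3.71-fold, edgeR adjusted p = 1.29e-12). CHD4, a helicase of NuRD, fell from 2.22, 2.25 and 2.58 to 0.72, 0.80 and 0.84 FPKM (2.78-fold, edgeR adjusted p = 5.39e-13). CHD3, also on the list, was more abundant and fell from 30.0 ± 0.261 to 13.8 ± 0.356 FPKM (SD, n = 3 each). Its fall was 2.03-fold (edgeR adjusted p = 1.91e-16). No treated library overlapped a control library in these genes. DNMT3A, ATRX and DAXX, of the same list, were higher by 1.24-fold, 1.19-fold and 1.25-fold (edgeR adjusted p = 0.00103, 0.00044 and 0.000207). These 3 genes and CHD3 are named here after their values were seen. Whether the falls bear on the ZNF genes was not tested.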

How the data were processed

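The authors deposited 1 table with raw counts per gene as whole numbers and FPKM values for each of the 6 libraries; per the file headers it also gives exonic gene sizes in bases. FPKM follow from counts, exonic size and column total, by the authors. HTSeq 0.6.1, HISAT2 2.0.1, cutadapt 1.9.1, GRCh38 and DESeq2 are listed, per the submitters' processing notes; the annotation release and strand setting are not given in the sources used here.

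Genes were filtered with filterByExpr (minimum count 10, minimum total 15), scaled by trimmed mean of M-values and fitted with edgeR 4.0.16 in R 4.3.3, group as the single term, on all 16082 genes that passed. FPKM are scaled by library totals, so a fold change and a ratio of FPKM can differ slightly. An exact permutation test of 3 against 3 libraries cannot give a p under 0.1. The procedure was run on simulated counts in which far fewer genes changed than were called here. That run does not cover the scaling of these data. Depth was 15298531 to 21744407 counts per library. Reads of near-identical paralogs may have been split between genes or lost in the counting, and small levels of recent duplicates are uncertain.

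The members and lists were chosen with earlier results of these data known. Named genes are the called members with the 12 largest rises and the 12 largest falls, where a group mean reached 1 FPKM and the groups were apart, the 5 most abundant, the 2 most abundant tested ones of each cluster, a list of members with known roles, TRIM28, SETDB1 and the 4 most changed corepressor genes. Finger and KRAB patterns were read from GENCODE release 29, which has all 263 members (116 with identical start and end). Promoter windows come from RefSeq (GRCh38.p14); the first 25 bases after the start lay in a coding GENCODE transcript of the gene for 155 of 216. The wider KRAB pattern was added after seeing the data. Alternatives were other scalings, DESeq2 1.42.0, other filters, limma 3.58.1 on log2 of FPKM + 1 and FPKM + 0.1, the replicate number as a block, cluster gaps of 0.5 and 2 Mb and each library left out.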

Additional observations from a re-analysis of the deposited data

How the results depend on the processing

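More members were higher than lower under every setting run, against 95 and 26 in the report. The counts stayed within 1.5 times of these values except in 2 settings that count fewer members. A mean of at least 2 FPKM leaves 63 tested members, 47 higher and 7 lower (and 32 lower among ZNF genes on other chromosomes). Without each library in turn they ran from 82 to 94 higher and from 22 to 26 lower; 77 of the 95 and 18 of the 26 were called without each of the 6 libraries. The median log2 fold change of 0.44 became 0.34 with library totals alone, where the median of all genes moved to -0.11, and 0.14 and 0.29 with limma on log2(FPKM + 1) and log2(FPKM + 0.1), which combine library totals with a pseudocount; relative to all genes the members' median was 0.45 with the main scaling and with library totals, and 0.20 and 0.39 with these. The other setting, chosen after seeing the data, keeps members that no other gene with 10 or more counts overlaps, and gave 46 higher and 15 lower of 93 tested. With a gap of 2 Mb the members formed 9 clusters. Replicate numbers do not pair the libraries (correlations of deviations 0.013, -0.004 and -0.045); with the replicate block 93 members were higher and 26 lower, with a median of 0.44. Of 774 values of 53 named members under the alternatives, 756 kept their direction and side of the threshold, 12 lost the call (ZNF414, ZNF358, ZNF254, ZNF574 and ZNF45), 6 gained one (ZNF428, ZNF507, ZNF302 and ZNF480) and 0 reversed. Single libraries decided some of these calls by edgeR: ZNF45 without the second DMSO library (log2 0.21, adjusted p = 0.0684), ZNF507 and ZNF428 without the first (0.16 and -0.21, adjusted p = 0.00807 and 0.0291), ZNF302 without the third (-0.20, adjusted p = 0.0393) and ZNF428 without the second Japoflavone B library (-0.23, adjusted p = 0.0476). The 87 members under the count filter went untested by choice of filter; without it, 46 of them could be tested and 3 were higher, while the other 41 had no counts.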

Other observations

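Zinc finger genes of chromosome 19 with other family names were called at shares near those of all genes. Of 15 genes named ZSCAN, ZFP, ZIM or ZIK, 8 were tested, 3 were higher and 3 lower (37.5% each, against 34.7% and 35.4% of all genes tested), with a median log2 fold change of 0.06. The 3 higher genes include ZFP36, which is of another kind. ZFP28, a KRAB gene, rose from 1.61, 1.23 and 1.56 to 3.30, 2.80 and 3.02 FPKM (2.24-fold, edgeR adjusted p = 6.98e-10), and ZFP30 fell from 2.75, 2.74 and 2.41 to 1.79, 1.62 and 1.91 FPKM (1.38-fold, edgeR adjusted p = 0.000232). In both the groups were apart. ZFP36 matched the naming pattern but is an RNA-binding protein of the CCCH type that promotes decay of AU-rich mRNAs; it was higher by 1.38-fold.

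Of 18 antisense RNAs named after chromosome 19 ZNF genes, 6 were tested. Of these, 2 were higher (33.3%, against 34.7% of all genes tested) and 4 did not pass. ZNF460-AS1 rose from 0.63, 0.51 and 0.49 to 1.13, 1.58 and 1.04 FPKM (2.43-fold, edgeR adjusted p = 0.00115). Its sense partner ZNF460 rose from 0.36, 0.25 and 0.33 to 0.72, 0.95 and 1.10 FPKM (3.16-fold, edgeR adjusted p = 3.57e-06). The genes overlap by their annotated ends, and without a stated strand setting reads from the shared stretch cannot be told apart. ZNF225-AS1, the other higher antisense RNA, rose by 2.01-fold (edgeR adjusted p = 0.0401), while its partner ZNF225 did not pass. These genes were named after their values were seen.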
